A study of Homo sapiens with 13 samples.

Results

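FOXA1 peaks of the ZNF608 locus were described in Ishikawa and Hec1A, human cell lines derived from endometrial adenocarcinomas. The members were all peaks of both lists with their centre between 123.6 and 124.8 Mb of chromosome 5 (hg19), a window that holds ZNF608 at about 123.97 to 124.08 Mb. There were 68 of 54855 Ishikawa peaks and 15 of 13252 Hec1A peaks, 83 of 68107 in all. The window was selected on the ranks of its peaks in these same lists, shared, Ishikawa-only and Hec1A-only, so numbers, ranks and levels of its peaks are descriptions, and none was tested. The study consisted of chromatin immunoprecipitation and sequencing (ChIP-seq) with 1 FOXA1 antibody (ab23738), in 6 Ishikawa and 3 Hec1A ChIP libraries, and of 2 input libraries per line, which are chromatin without immunoprecipitation. Libraries were made with TruSeq or ThruPLEX kits, 2 and 4 of the Ishikawa ChIP libraries, 1 and 2 of the Hec1A ChIP libraries and 1 of each in either pair of inputs. The labels give no treatment and no genetic change for either line, and name no separate cultures. Each peak list was called by the authors on the pooled ChIP libraries of 1 line, 343739762 tags in Ishikawa and 143055568 in Hec1A, a tag being a mapped read. Values therefore have no replicate error, and the lines cannot be told apart from the pools, depths and filters that differ between their lists. Ishikawa peaks had to pass a fold of 4 over input, whereas the Hec1A header gives no input directory or input fold and its list has no input column. The output name in the recorded Hec1A command does refer to inputs, so whether input was used for that list is uncertain.

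FOXA1 is a forkhead transcription factor that binds DNA in closed chromatin and opens it for other factors, among them the oestrogen receptor. It is expressed in endometrial epithelium, and most of its sites in epithelial cells lie away from gene starts, within genes and between them. ZNF608 encodes a zinc finger protein and is a paralogue of ZNF609; in mouse thymocytes the orthologue Zfp608 has been linked to repression of the recombination genes Rag1 and Rag2. In RefSeq the gene lies on the minus strand, so its start is at the high end of the span, and positions below the span lie downstream of it. By gene order, the nearest protein-coding neighbours are CSNK1G3, a casein kinase 1 gene, on the low side and GRAMD2B on the high side, with long noncoding RNA genes and pseudogenes in between. Gene order was read from GRCh38.p14, and its coordinates were neither converted nor used.

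The promoter of ZNF608 is shown because Ishikawa peaks lay near the approximate gene start. The 250 bases before the start (RefSeq, GRCh38.p14, chromosome 5, minus strand, read 5′ to 3′ along the gene) were as follows, with the forkhead core letters TGTTT in capitals.
ZNF608 promoter: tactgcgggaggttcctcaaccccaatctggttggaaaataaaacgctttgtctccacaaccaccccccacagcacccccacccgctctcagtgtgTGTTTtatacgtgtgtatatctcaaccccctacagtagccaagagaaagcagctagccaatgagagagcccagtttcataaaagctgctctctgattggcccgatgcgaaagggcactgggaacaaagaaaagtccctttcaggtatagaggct
The fuller forkhead motifs TGTTTAC and TGTTTGC were searched on both strands and had no match in these 250 bases, and they occurred in 2.98% and 3.23% of 35116 RefSeq promoter stretches of the same length. The core TGTTT, which lies inside both, matched once, at position -154 from the gene start, and occurred on either strand in 40.4% of all promoters. A match describes letters only. Whether a peak overlaps these bases was not examined, because peaks and promoter are given in different builds.

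Ishikawa FOXA1 peaks were denser in the ZNF608 window than in any other 1.2 Mb tile. The genome was cut into tiles of the window's length, and 2396 tiles held a peak of either list. The window held 68 Ishikawa peaks, the highest number of all tiles, against a median of 23 and a 95th percentile of 40. Its Ishikawa signal, the deposited normalized tag count (tags per 10000000 mapped tags) summed over peaks, was 3748, also the highest, against a median of 334.6. In Hec1A the window held 15 peaks, and 93 tiles, itself included, held as many or more, with a median of 5. Its summed Hec1A signal of 335.2 ranked 13 of 2396, against a median of 28.3, and was the highest on chromosome 5. The window held 11 shared sites, that is, sites where intervals of both lists overlap, and 45 tiles, itself included, held as many or more, with a median of 2.

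**Figure D1:**
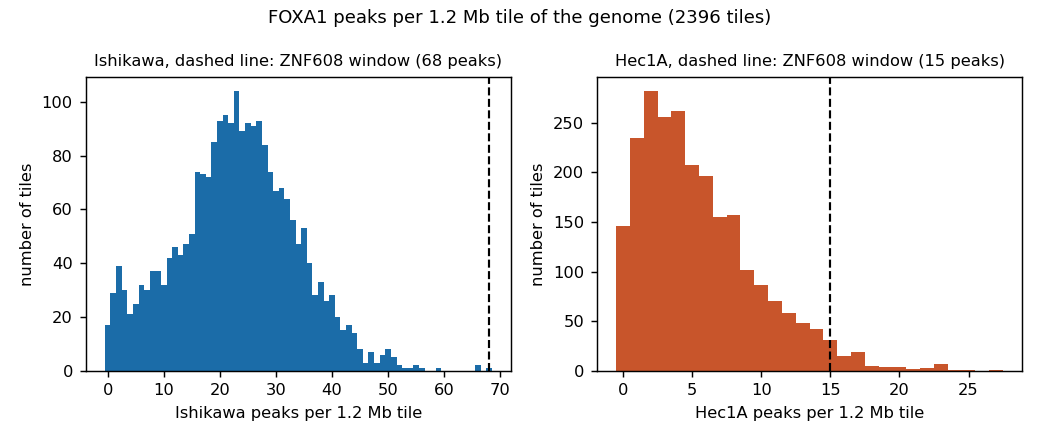
Number of FOXA1 peaks (x axis) against number of 1.2 Mb tiles (y axis), for Ishikawa on the left and Hec1A on the right. The dashed line marks the ZNF608 window, at the end of the Ishikawa distribution with 68 peaks and in the upper part of the Hec1A distribution with 15.

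The rank in Ishikawa was the same without the highest peak of each tile. The window then kept 2998 normalized tags in Ishikawa, rank 1 of 2396, with 2379 in the next tile. It was chosen for several top-ranked peaks, and the others remained, so this is a description and no test of the rank. In Hec1A the same removal left 212.1 normalized tags, rank 8. The tiles start at fixed positions, however. With windows of the same length every 100 kb, 3 Ishikawa windows elsewhere held at least 68 peaks, up to 70, while those that overlapped the ZNF608 window reached 75. No such window elsewhere reached its summed Ishikawa signal, the highest being 3496.

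Within the window, peaks of both lines were most closely spaced over the gene itself. The 110 kb of the approximate ZNF608 span held 13 Ishikawa peaks, 11.8 per 100 kb, and 5 Hec1A peaks, 4.55 per 100 kb. The downstream flank held 20 Ishikawa and 6 Hec1A peaks, 5.41 and 1.62 per 100 kb. The upstream flank held 35 and 4, which were 4.86 and 0.556 per 100 kb. The gene span took 35.6% of the Ishikawa signal of the window, the downstream flank 35.9% and the upstream flank 28.5%. In Hec1A these shares were 40.7%, 14.6% and 44.7%. Few peaks held much of the signal: the 3 highest peaks gave 42.5% of the Ishikawa signal, and the 2 highest gave 66.2% of the Hec1A signal.

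**Figure D2:**
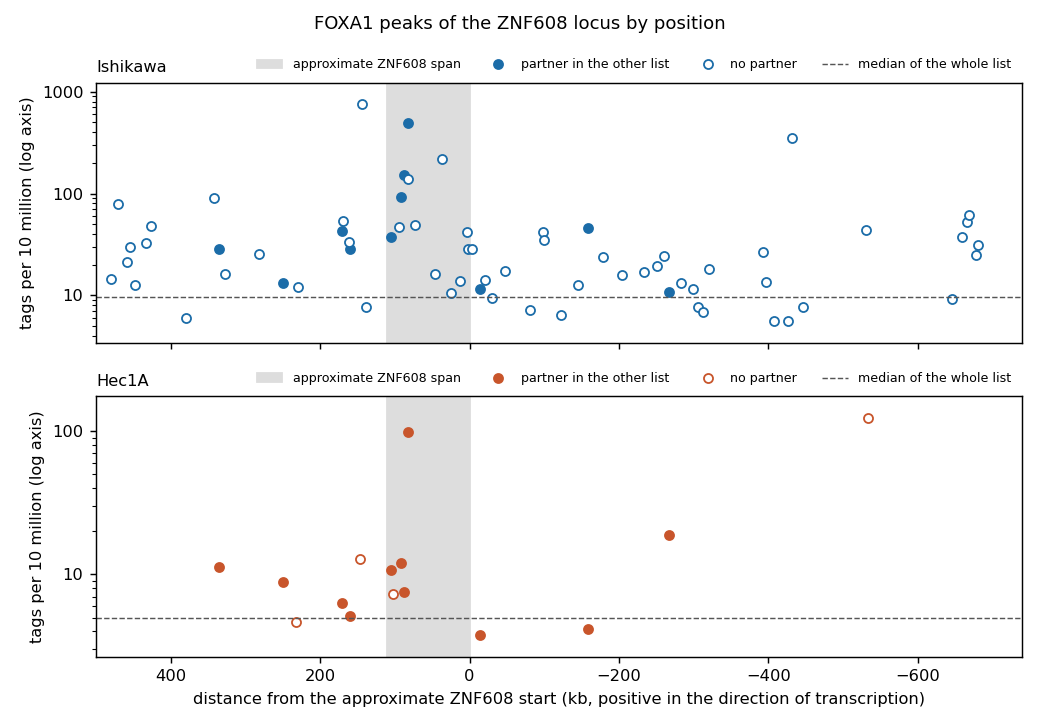
Signal of each peak in normalized tags (y axis, log) by distance from the approximate ZNF608 start (x axis, kb), with Ishikawa above and Hec1A below. Filled points have a partner in the other list, the grey band is the approximate gene span and the dashed line is the median of the whole list. In both lines the highest point of the gene span lies about 83 kb into the gene, at 492.9 in Ishikawa and 98.7 in Hec1A.

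The strongest shared site of the locus lay inside ZNF608. The Ishikawa peak at chr5:123997077-123997429 had 492.9 normalized tags (95% Poisson interval 485.5 to 500.4), and the Hec1A peak at chr5:123997126-123997380 had 98.7 (93.6 to 104.0). These intervals, here and below, come from tag numbers computed as signal times depth, cover counting error only, and are too narrow where tags are copies of 1 fragment. The peak centres coincided to the base. By score, which is the tag number that findPeaks uses to rank peaks, it was number 22 of 54855 in Ishikawa and number 42 of 13252 in Hec1A. Its fold over the surrounding 10 kb was 29.9 in Ishikawa and 32.1 in Hec1A, and the Ishikawa fold over input was 381.8.

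This site was part of a row of peaks in both lines. When peaks with centres at most 10 kb apart were joined, 6 Ishikawa peaks from 123985595 to 124006951 formed 1 cluster of 21.4 kb with a summed signal of 971.3 normalized tags, rank 7 of 44335 Ishikawa clusters. The Hec1A peaks joined there were 3, from 123988114 to 123997380, with a summed signal of 118.3 normalized tags, rank 33 of 12126. The spacing of 10 kb was chosen with the peak positions known. Signals of the 6 Ishikawa peaks, in order of position, were 46.9, 92.6, 151.4, 492.9, 138.4 and 49.1 normalized tags. The 3 Hec1A peaks had 12.0, 7.55 and 98.7 normalized tags. All 3 had an Ishikawa partner. The 2 next strongest Ishikawa peaks of the row differed in this, since the peak of 151.4 had a Hec1A partner and that of 138.4 had none. In the whole window, 16 of 37 Ishikawa clusters (43.2%) had more than 1 peak, against 18.3% of all Ishikawa clusters. In Hec1A these were 2 of 12 (16.7%), against 8.02%.

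Most Ishikawa peaks of the window had no partner in Hec1A, and most Hec1A peaks had one in Ishikawa. A partner was counted where intervals shared at least 1 bp. Of the 68 Ishikawa peaks 11 (16.2%) had a partner, against 12.8% of the whole Ishikawa list. Of the 15 Hec1A peaks 11 (73.3%) had a partner, against 52.9% of the whole Hec1A list. The 95% Wilson intervals of the window were 9.28% to 26.7% in Ishikawa and 48.0% to 89.1% in Hec1A. They treat neighbouring peaks of 1 pooled list as independent, so they are no test against the shares of the lists. Shared sites also took part in the choice of the window. The Ishikawa share was under that of the list in 4 of 8 alternatives, and the Hec1A share in 1 of 8. Among peaks with a fold over the surrounding 10 kb of at least 8, which 39 of 68 Ishikawa peaks reached (40.1% of the list) and 6 of 15 Hec1A peaks (26.0% of the list), 3 Ishikawa and 3 Hec1A peaks had a partner. The Ishikawa share of 7.69% was then under that of such peaks in the list, 9.44%, and 3 of 6 Hec1A peaks stood against 60.3%. The Ishikawa share was also lower with clonal folds of at most 1 (12.7%, against 13.7%), with as many Ishikawa peaks as the Hec1A list holds (19.5%, against 29.9%) and with folds over input of at least 8 (18.4%, against 18.6%). The Hec1A share stayed above that of the list in these 3 settings, at 80.0% against 59.7%, 53.3% against 29.9% and 60.0% against 37.5%.

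At the 11 shared sites the signal was higher in Ishikawa at 10 and higher in Hec1A at 1. Hec1A was the higher at 6.43% of all 7012 shared pairs, so this split is near that of the lists. The median ratio of Ishikawa over Hec1A was 4.99, against 3.53 over all 7012 shared pairs of the lists, whose middle 50% lay between 2.10 and 5.83. The ratios in the window ran from 0.571 to 20.1, reaching into the lowest 5% of all pairs (under 0.856) and the highest 5% (over 12.7). Peaks are 353 bp wide in Ishikawa and 254 bp in Hec1A, and per base of width the median was 3.59 in the window and 2.54 over all pairs. Across the 11 sites Spearman's rho between the signals was 0.218, and 0.467 across all pairs. Over the 8 sites with a Hec1A clonal fold of at most 1, a measure of stacked tags described with the scores, rho was 0.643 and the median ratio 5.28, against 0.525 and 3.86 over all such pairs. Sites share their libraries and filters, and these values are descriptions.

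**Figure D3:**
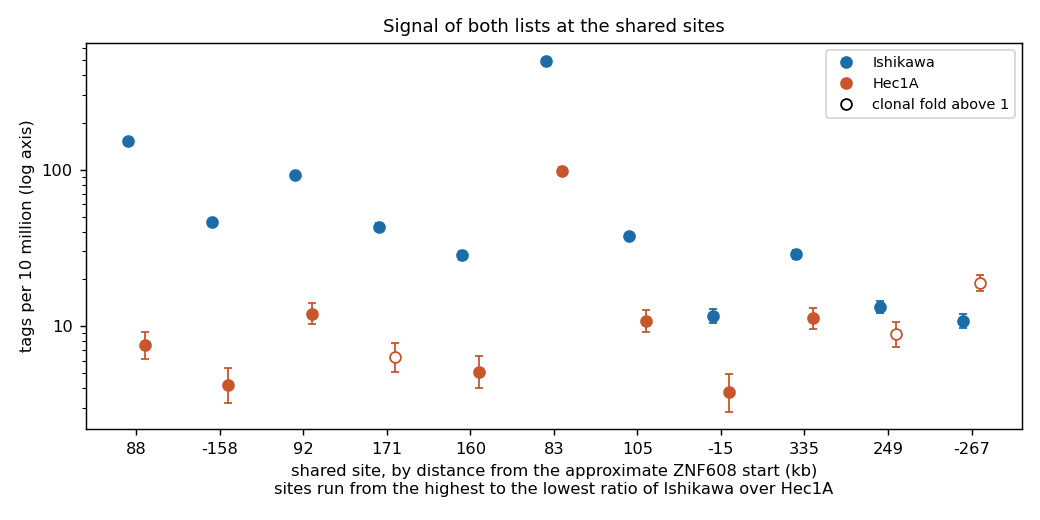
Signal in normalized tags (y axis, log) of the Ishikawa peak (blue, left) and the Hec1A peak (orange, right) at the 11 shared sites, ordered by their ratio and labelled by distance from the approximate ZNF608 start in kb. Bars are 95% Poisson intervals and open points have a clonal fold above 1. Ishikawa is higher at 10 sites, and the site at -267 kb is the exception with 10.8 in Ishikawa and 18.9 in Hec1A.

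The largest ratio belonged to a site within the gene. The Ishikawa peak at chr5:123991673-123992025 had 151.4 normalized tags (147.3 to 155.6) and the Hec1A peak at chr5:123991712-123991966 had 7.55 (6.19 to 9.11), a ratio of 20.1 (exact interval 16.6 to 24.5), at percentile 97.8 of all shared pairs. Next came an upstream site, chr5:124237788-124238140 in Ishikawa with 46.1 normalized tags and chr5:124237826-124238080 in Hec1A with 4.19, a ratio of 11.0 (8.50 to 14.5). Another site inside the gene, at 123988066 in Ishikawa and 123988114 in Hec1A, had 92.6 and 12.0 normalized tags, a ratio of 7.72 (6.60 to 9.03). These 3 ratios, and that of 6.81 (5.50 to 8.50) at 123909052 in the downstream flank, had intervals above that of the strongest shared site, which was 4.99 (4.73 to 5.28). Without replicate error, such intervals do not test whether sites differ. The Hec1A peak at 123909052 had a clonal fold of 1.80 and a score of 42.9% of its tags, so its interval can be too narrow. Within the gene span, the strongest shared site held 36.9% of the Ishikawa signal and 72.4% of the Hec1A signal.

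The other 7 shared sites had under 50 normalized tags in both lines. In the downstream flank, the site at 123744610 in Ishikawa and 123744660 in Hec1A had 28.8 and 11.2 normalized tags. That at 123830523 and 123830590 had 13.3 in Ishikawa and 8.88 in Hec1A. The site at 123908996 and 123909052 had 43.3 in Ishikawa and 6.36 in Hec1A. At 123919728 in Ishikawa and 123919517 in Hec1A the signals were 28.4 and 5.10, and here the intervals shared only 44 bp, with centres 260 bp apart, an offset at percentile 99.3 of all pairs. The remaining centres lay 0 to 87 bp apart, with a median of 10 bp over the 11 pairs and 14 bp over all pairs. At the low end of the gene, the site at 123974678 and 123974717 had 37.4 normalized tags in Ishikawa and 10.8 in Hec1A. The site about 15 kb before the gene start, at 124094440 and 124094505, had 11.6 in Ishikawa and 3.77 in Hec1A. The only site that was higher in Hec1A, at 124347213 in Ishikawa and 124347349 in Hec1A, had 10.8 and 18.9 normalized tags, a ratio of 0.571 (0.488 to 0.671).

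That exception depended on which tags were counted. The score counts at most 17 tags per base position in Ishikawa and 7 in Hec1A, per the file headers. The Ishikawa peak at 124347213 held about 371 tags and had a score of 376, whereas its Hec1A partner held about 270 tags and had a score of 98. Scaled to 10000000 tags, the scores were 10.9 in Ishikawa and 6.85 in Hec1A, so the ratio became 1.60 and the direction turned. On that scale, added after the values were seen, Ishikawa was higher at all 11 sites, and the median ratio was 3.36, against 3.65 over all pairs. The ratio of scores was below 1 at only 314 of all 7012 pairs, so this split is near that of the lists.

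Ishikawa peaks without a partner included the strongest of the locus. The peak at chr5:123935355-123935707, about 144 kb past the approximate gene start and beyond the far end of the gene, had 749.2 normalized tags (740.1 to 758.4), rank 5 of 54855 by score and 14 by signal, and was the highest of chromosome 5. It held 20.0% of the Ishikawa signal of the window, and its fold over input was 483.7. The next was chr5:124511804-124512156, about 432 kb before the gene start, with 349.8 normalized tags (343.6 to 356.1), rank 51 by score and a fold over input of 451.9. The nearest Hec1A peak lay 101 kb from it. Another lay inside the gene at chr5:124042473-124042825, with 216.1 normalized tags and rank 254. The others named by rank were at 123998144 with 138.4 normalized tags, at 123737269 with 89.8 and at 123610029 with 79.6. Ishikawa peaks without a partner numbered 57, with a median of 21.4 normalized tags and a range of 5.56 to 749.2. The 11 with a partner had a median of 37.4 and a range of 10.8 to 492.9, so the signals of both groups overlapped.

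The lists give no value where no peak was called, so a Hec1A level at these sites is not known. The calling threshold in Hec1A was a score of 32 tags, which is 2.24 when scaled to 10000000 tags, and a peak could also fail the local or the clonality filter. Of the Ishikawa peaks, 44 of 68 (64.7%) lay more than 10 kb from any Hec1A peak, against 79.2% of the list, and 23 (33.8%) lay more than 50 kb away, against 54.1%. Such distances were less frequent in the window than in the list. The window was chosen partly on Hec1A sites, and it held 15 Hec1A peaks against a median of 5 per tile. The part of either in these distances was not tested. The largest distance to the nearest Hec1A peak was 145 kb, at the low edge of the window.

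Hec1A peaks without a partner were 4, and each had an Ishikawa peak nearby. The strongest, chr5:124613273-124613527, had 123.1 normalized tags (117.4 to 129.0), rank 23 of 13252 by score, a fold over the surrounding 10 kb of 43.2, and was the highest Hec1A peak of the window. It lay about 533 kb before the gene start and held 36.7% of the Hec1A signal of the window. The Ishikawa peak nearest to it, at 124611037, had 43.8 normalized tags with its centre 2.19 kb away. At 123932639 the Hec1A signal was 12.7 normalized tags, and the nearest Ishikawa peak, 2.77 kb away, was the one of 749.2. Another Hec1A peak, at 123976837, had 7.27 normalized tags and lay 2.11 kb from an Ishikawa peak of 37.4, itself the partner of another Hec1A peak. The last, at 123847068, had 4.68 normalized tags and lay 3.79 kb from an Ishikawa peak of 12.2.

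Of the Ishikawa peaks, 18 of 68 (26.5%) had a Hec1A peak with its centre within 5 kb, against 16.3% of the list. Every Hec1A peak of the window had an Ishikawa peak that near, 15 of 15, against 62.6% of the Hec1A list. Without counting overlaps, 7 of 68 Ishikawa peaks (3.47% of the list) and 4 of 15 Hec1A peaks (9.71% of the list) had one. Peaks of the window were also closer to each other within each line. Ishikawa centres lay a median of 10.8 kb apart there, and 29.2 kb apart in the whole list. Hec1A centres lay a median of 29.3 kb apart in the window and 102.6 kb in the list. Counted as combinations, there were 10 close pairs without overlap, with centres 1.07 to 3.79 kb apart. The closest was the Ishikawa peak at 123998144 beside the Hec1A peak at 123997126, whose own partner is the strong Ishikawa peak of the gene. In the downstream flank, the Ishikawa peak at 123918282 with 33.1 normalized tags lay 1.19 kb from the Hec1A peak at 123919517, and that at 123910419 with 53.2 lay 1.42 kb from the one at 123909052. Inside the gene, the Ishikawa peak at 123985595 lay 2.47 kb from the Hec1A peak at 123988114. The remaining 2 pairs cross the neighbouring shared sites at 123988066 and 123991673, with centres 3.60 and 3.61 kb apart.

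At the approximate gene start, peaks were found in Ishikawa. Those at 124076804, 124077983 and 124082919 had 41.6, 28.5 and 28.3 normalized tags, and all 3 lay within about 3 kb of 124.08 Mb, a position given to the nearest 10 kb. None had a partner, and only 12.8% of the whole Ishikawa list had one. All 3 lay more than 10 kb from any Hec1A peak, as did 79.2% of the list. The nearest Hec1A peak was the one at 124094505, about 15 kb before the start, with 3.77 normalized tags (2.84 to 4.93), the weakest Hec1A peak of the window. Folds of the 3 Ishikawa peaks over the surrounding 10 kb were 7.88, 4.66 and 4.89, against a median of 8.44 in the window.

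The tag level around the peaks was higher in the window than elsewhere in both lines. Local background was computed as signal divided by fold over the surrounding 10 kb, and the surrounding 10 kb can hold neighbouring peaks. Its median was 2.31 normalized tags at the 68 Ishikawa peaks, against 1.31 on the rest of chromosome 5 and 1.34 in the rest of the list. At the 15 Hec1A peaks it was 1.496, against 0.937 on the rest of chromosome 5 and 0.810 in the rest of the list. It was above the median of the whole list at 59 of 68 Ishikawa and 14 of 15 Hec1A peaks. The highest levels lay inside the gene: 29.1 at the Ishikawa peak at 123998144, 16.5 at that at 123997077 and 3.07 at the Hec1A peak at 123997126. The part of this level in the number of peaks and in the signals was not tested.

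**Figure D4:**
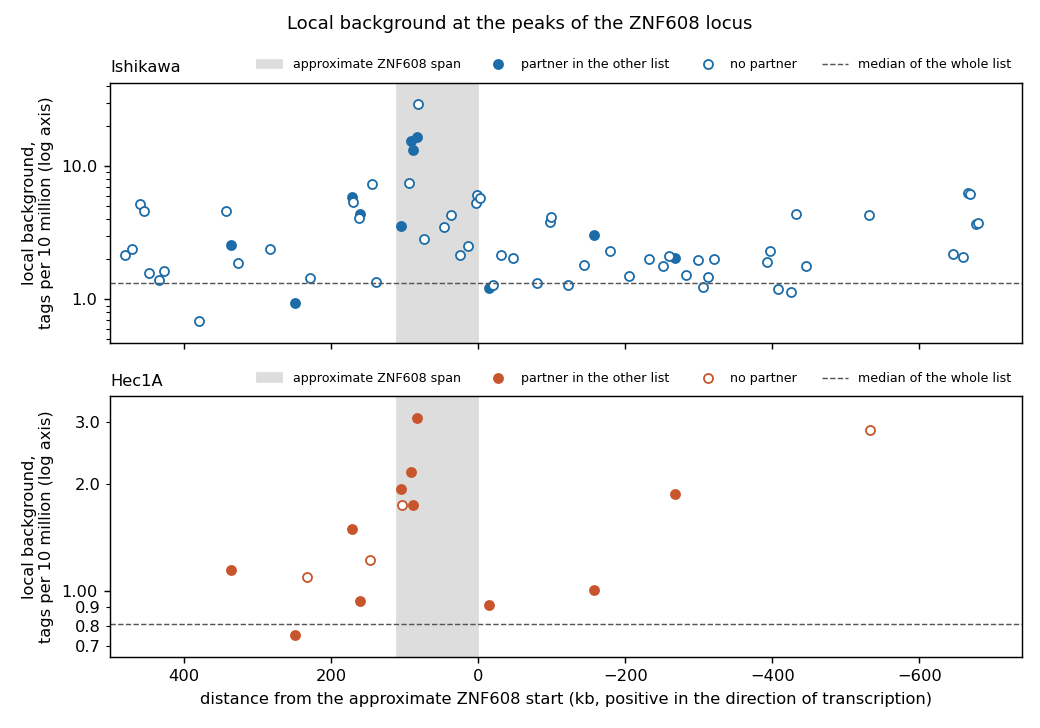
Local background of each peak in normalized tags (y axis, log) by distance from the approximate ZNF608 start (x axis, kb), with Ishikawa above and Hec1A below. Filled points have a partner, the grey band is the gene span and the dashed line is the median of the whole list. The highest levels of both lines lie within the gene span, at 29.1 in Ishikawa and 3.07 in Hec1A.

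The ratio between the lines depended on the scale. As a ratio of folds over the surrounding 10 kb, the strongest shared site had 0.931 in place of the 4.99 of the signal scale, and the median over the 11 sites was 1.203, against 1.90 over all pairs. Beside the strongest shared site lay the Ishikawa peak at 123998144 with 138.4 normalized tags. Its part in the ratio of 0.931 was not tested. Pooled input was also read at each Ishikawa peak. It had a mean of 6.79 and a median of 7 tags at the window's peaks, against 5.36 and 5 in the rest of the list. Among peaks in the top 10% by score, the mean was 7.50 over 26 window peaks and 7.32 over 5465 others, with a median of 7 in both. On the rest of chromosome 5 the mean was 6.86 over 276 peaks in the top 10% and 5.14 over all peaks. Hec1A input at the peaks is not analysed here.

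High ranks were frequent in the window, as its choice implies. In Ishikawa 5 of 68 peaks were in the top 1% by score, against 0.999% of the list, and 26 of 68 in the top 10%, against 10.0%. In Hec1A 2 of 15 were in the top 1%, against 0.996%, and 3 of 15 in the top 10%, against 10.1%. The median signal was 24.6 normalized tags at the window's Ishikawa peaks, against 9.66 in the rest of the list. In Hec1A it was 8.88, against 4.96. The median fold over input in Ishikawa was 12.5, against 7.79. The focus ratio, which describes how tightly tags surround the peak centre, had a median of 0.811 in Ishikawa, against 0.829 in the rest of the list, and of 0.859 in Hec1A, against 0.823.

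Peaks with stacked tags were less frequent among the Ishikawa peaks of the window than in the Ishikawa list, and about as frequent as in the list among the Hec1A peaks. The clonal fold is the number of unique tag positions expected in a peak over the number found, so tags stacked on few positions give high values, and peaks above 2 were removed by the authors. In Ishikawa 5 of 68 peaks (7.35%, Wilson interval 3.18% to 16.1%) had a clonal fold above 1, against 25.1% of the list. In Hec1A these were 5 of 15 (33.3%, 15.2% to 58.3%), against 28.8%. These intervals treat neighbouring peaks of 1 pooled list as independent and are no test against the lists. The window was chosen on ranks, and stacked tags go with lower scores. In the rest of the Ishikawa list the median score was 74.7% of the tags with a clonal fold above 1, and 101.1% otherwise. The part of this choice in the lower Ishikawa share was not tested. The 5 Hec1A peaks above 1 were those at 123830590 with 1.73, 123847068 with 1.95, 123909052 with 1.80, 123932639 with 1.38 and 124347349 with 1.72. Of these, 3 had a partner and 2 had none. In the rest of the Hec1A list, 935 of 3814 peaks with a clonal fold above 1 had a partner. The scores of the 5 window peaks came to 36.3% to 50.7% of their tags. The other 10 Hec1A peaks of the window had scores of 78.5% to 105.8% of their tags. None of the 5 lay inside the gene. Both strong Hec1A peaks of the locus had clonal folds under 1, 0.62 at 123997126 and 0.73 at 124613273, against a median of 0.72 in the whole Hec1A list.

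**Figure D5:**
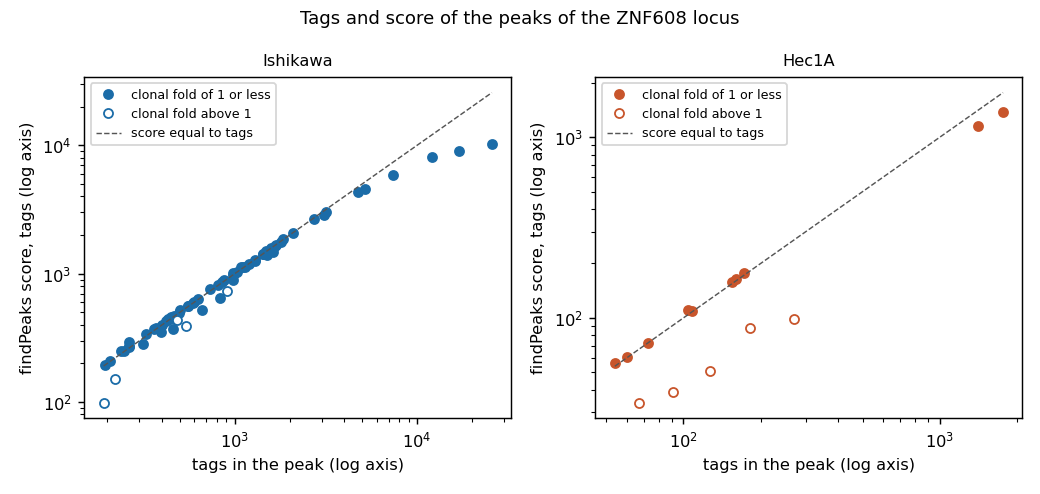
Tags in each peak (x axis, log), computed from signal and depth, against the findPeaks score (y axis, log), with Ishikawa on the left and Hec1A on the right. On the dashed line all tags enter the score, and open points have a clonal fold above 1. The 5 open Hec1A points lie under the line, and so do the strongest Ishikawa peaks, down to 39.6% at the peak of 749.2 normalized tags.

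In Ishikawa the score was also under the number of tags at the strongest peaks. The 5 Ishikawa peaks with a clonal fold above 1 had scores of 51.8% to 89.8% of their tags. The peak at 123935355 held about 25753 tags and had a score of 10189, or 39.6% of its tags. At 123997077 the score was 53.0% of the tags, at 124511804 it was 67.8% and at 124042473 it was 78.9%. Comparisons of size were therefore made on signals. By signal, 5 of 68 Ishikawa peaks were in the top 1% (1.0% of the list) and 2 of 15 Hec1A peaks (0.996%).

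Just inside the lower edge lay an Ishikawa peak at 123599905 with 14.5 normalized tags, and just outside it one at 123598954 with 18.3. At the upper edge, the last Ishikawa peak inside, at 124760041, had 31.6 normalized tags and the first outside, at 124814306, had 6.05. The nearest Hec1A peaks inside the edges were those at 123744660 and 124613273 described above. Outside, the nearest Hec1A peaks had 6.43 normalized tags at 123164312 and 4.54 at 124819582. Below the window, the nearest Hec1A peak thus lay 436 kb from the edge.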

How the data were processed

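The authors pooled the FOXA1 ChIP libraries of each line, and the inputs of Ishikawa. The submitters' processing notes name hg19, HOMER 4.7.2, SAMtools 1.3.1 and Bowtie 1.1.2. Per the file headers, findPeaks in factor mode required a false discovery rate of 0.001 (88 tags in Ishikawa, 32 in Hec1A), a fold of 4 over the surrounding 10000 bp, at most 2-fold clonality and, in Ishikawa, a fold of 4 over input. The authors deposited, for each peak, a signal (normalized tag count, scaled to 10000000 tags), the focus ratio as a fraction, the findPeaks score and ratios (folds over the surroundings and over input, clonal fold). The scores and folds are theirs and describe peaks within each list.

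Peaks were selected by centre, and overlap meant at least 1 bp. Interval ends were counted as inclusive. Intervals of shares are Wilson intervals, those of signals exact 95% Poisson intervals and those of ratios conditional exact binomial intervals. The overlap procedure was tested on simulated lists. Peaks named are all with a partner, the 6 of highest score without a partner in each list, close pairs, and those nearest the edges and the gene start; other sites named were chosen after their values were seen. Members, rules and lists were chosen with earlier results of these data known. Clusters, tiles, clonal counts and score per tag were added after the values were seen. Python 3.11.15, pandas 2.3.3, NumPy 2.4.6 and SciPy 1.17.1 were used. Values per library and an hg19 annotation or genome were not used here, so the planned motif search in peaks was not made.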

Additional observations from a re-analysis of the deposited data

How the results depend on the processing

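Over 35 alternatives of the numbers, shares, ratios, ranks and background levels of the window, 27 stayed within 1.5 times the reported value or, for a share, within its binomial interval. For the Hec1A share of 15 peaks that interval, 48.0% to 89.1%, is too wide to show stability. The interval of the Ishikawa share, 9.28% to 26.7%, is also wide. Its 26.5% with centres within 5 kb still counts as within it. Where only Ishikawa peaks were filtered, the number of 15 Hec1A peaks could not change, yet it is counted among the 27. Where folds over the surrounding 10 kb had to reach 8, the window held 39 Ishikawa and 6 Hec1A peaks, and 7.69% of the Ishikawa peaks had a partner. Among as many highest-scoring Ishikawa peaks as the Hec1A list holds, 41 lay in the window. With centres within 5 kb, 100% of the Hec1A peaks had a partner. Divided by local background, the median ratio of Ishikawa over Hec1A was 1.203 and the ratio at 123997126 turned to 0.931. By score per 10000000 tags, added after seeing the data, the ratio at 124347349 turned to 1.60. Ranked by fold over the local region, 2 Ishikawa peaks and 0 Hec1A peaks of the window were in the top 1%. The cause was not tested. The search for forkhead motifs under the peaks was planned but left out. No paired analysis was possible because only pooled lists were used, and leaving out libraries was not possible for the same reason. The weakest Hec1A site held about 54 tags, which limits the precision of its ratio.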

Other observations

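At the upper end of the window lay a group of Ishikawa peaks more than 50 kb from any Hec1A peak. Such a distance is common, since 54.1% of all Ishikawa peaks lay that far from any Hec1A peak. From 124738529 to 124760393, 5 Ishikawa peaks within 21.9 kb had a summed signal of 207.2 normalized tags (per 10000000 mapped tags), rank 367 of 44335 Ishikawa clusters, and single signals of 37.8, 52.0, 60.9, 24.9 and 31.6. The nearest Hec1A peak lay 59.5 to 81.0 kb from them. It was chosen after its values were seen, and no annotation of hg19 was used here to name what lies there.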
